A study of Mus musculus with 240 samples.

Results

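The genes described here are 31 genes of DNA replication and of the switch from G1 into S phase. They were chosen by name, and a probe was taken for a gene when its annotated symbol, or a synonym of it, was on the list. All 31 were measured, with 35 probes, out of 19896 named genes on the array. Of the 31, 28 had 1 probe, 2 had 2 probes and 1 had 3 probes, and probes of a gene were averaged. Cdt1, Gins1, Gins2, Cdc45 and Orc1 were found under older symbols.

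Male mice of 2 strains, B6 and BTBR, were compared as lean animals and as animals with the ob mutation of leptin, which lack a working form of this satiety hormone and become obese. The animals were 4 or 10 weeks old and came from in-house colonies, and the labels do not say whether a lean mouse carried a copy of the mutation. Pancreatic islets, adipose, liver, gastrocnemius and soleus muscle and hypothalamus were taken from 43 mice, 36 of which gave all 6 tissues. Each of the 48 groups of tissue, strain, genotype and age held 5 mice, and each mouse was hybridised against a pool of RNA of its own strain and tissue, which gave 240 arrays. BTBR ob mice are known as a model in which obesity leads to severe diabetes, whereas B6 ob mice stay much closer to normal blood glucose.

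Replication is set up in G1, when the origin recognition complex (which includes Orc1) and the loaders Cdc6 and Cdt1 place the MCM helicase on DNA. Geminin (Gmnn) binds Cdt1 and blocks a second round of loading. At the start of S phase, cyclin E and E2F factors switch on the genes of the program, Cdc45 and the GINS complex join the MCM ring, and polymerase, clamp and nucleotide-making enzymes follow. In adult islets, beta cells divide rarely, and their capacity to do so falls with age and can increase under metabolic load.

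All values are log2 of the ratio of a mouse to its pool, so a value of 0 is the level of the pool and a difference of 1 is a doubling. Errors after ± are standard errors of the difference from a linear model with limma, each over 5 mice a group, and adjusted p-values are Benjamini-Hochberg values over all 19896 genes. "Rose" and "fell" are used of genes with an adjusted p below 0.05. The background beside a count is the share of all 19896 genes past this threshold in the same comparison, up and down. The labels do not settle which dye is the numerator. A mouse over its pool was taken as the likely direction. Among the 200 most variable probes, most had a mean below 0 over the arrays of a pool in 11 of 12 strain and tissue sets. B6 hypothalamus was the exception, at 44.5%, and the others lay between 62.5% and 96.5%. A mean of logs gives such a majority below 0 if a pool held the mice of its arrays. The labels give the size of a pool but do not say which mice it held. Arrays of 1 strain and tissue correlated between -0.65 and 0.897, and 324 of 2280 pairs lay below -0.3. If the sign were turned, each gene given as higher would be lower by an equal amount, in every comparison. In adipose the transcript of the targeted gene, Lep, was higher in ob mice by 3.31 ± 0.23 in B6 at 4 weeks, a direction that depends on the same choice. A ratio to a pool of the same tissue carries no level, so tissue identity could not be checked by the height of its markers, and levels cannot be compared between tissues or strains. In these bulk samples, fewer cells of a type and less RNA per cell cannot be told apart.

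In islets the program was higher in obese B6 mice at both ages, and far less so in obese BTBR mice. Of 31 genes, 26 rose and none fell in B6 at 4 weeks, with a median difference of 0.71, against a background of 24.6% up and 20.6% down. At 10 weeks 24 rose and none fell in B6, with a median of 0.58, against a background of 24.3% up and 19.8% down. The median over all genes stayed within -0.022 and 0.035 in every comparison. The 23 genes that rose at both ages were 88.5% of the first set and 95.8% of the second. In BTBR 3 rose and 2 fell at 4 weeks, with a median of 0.02, a share in each direction below a background of 22.0% up and 21.0% down, and 11 rose and 1 fell at 10 weeks, with a median of 0.22 against 25.9% up and 25.8% down.

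**Figure D1:**
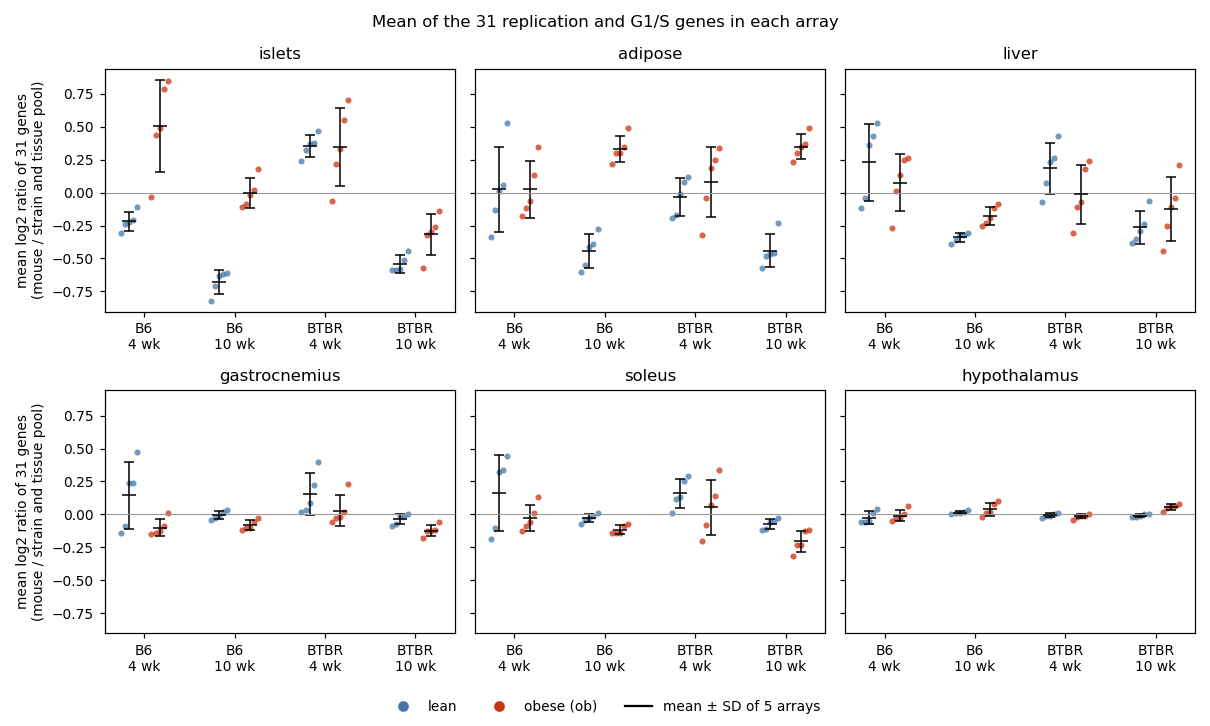
Mean log2 ratio to the pool over the 31 genes, on the vertical axis, for each mouse (points) and each group mean (bars), by tissue, strain, genotype and age. In B6 islets at 10 weeks the lean mice lay between -0.82 and -0.61 and the ob mice between -0.11 and 0.18, and in adipose at 10 weeks lean and ob mice of both strains were apart.

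A helicase gene, Mcm3, had the largest islet difference of the set in B6 at 10 weeks. By median the helicase genes (0.68) came after nucleotide supply (0.9) and licensing (0.8). Mcm3, a subunit of the MCM ring, was at -1.53, -1.47, -1.47, -1.32 and -1.20 in the 5 lean mice and at -0.30, -0.13, -0.03, 0.12 and 0.30 in the 5 ob mice. The groups did not overlap, and the difference was 1.39 ± 0.23 (adjusted p = 8.1e-06). Gins1, a subunit of the GINS complex, rose by 1.25 ± 0.15 at 10 weeks and by 1.13 at 4 weeks. In all, 8 of 10 helicase genes rose at 10 weeks and 9 of 10 at 4 weeks, with Mcm4 the member with the smallest difference at 10 weeks, at 0.08.

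Nucleotide supply changed as a whole in B6 islets, with 4 of 4 genes up at both ages. Rrm2, the regulated subunit of ribonucleotide reductase, was at -1.21, -1.10, -1.05, -1.03 and -0.89 in lean B6 mice of 10 weeks and at 0.13, 0.21, 0.30, 0.34 and 0.45 in ob mice. Every ob mouse was above every lean mouse, with a difference of 1.34 ± 0.11 (adjusted p = 7.3e-12). Its probes differed, at 1.66 and 1.02. Tk1, thymidine kinase of the salvage route, lay between -2.19 and -1.19 in lean and between -1.02 and -0.25 in ob mice, a difference of 1.14 ± 0.20. Tyms, which makes thymidylate, rose by 0.66 at 10 weeks and by 1.09 at 4 weeks.

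The licensing genes also rose as a set in B6 islets, 4 of 4 at both ages. Cdc6 was at -1.44, -1.43, -1.37, -1.33 and -0.86 in lean mice of 10 weeks and at -0.32, -0.29, -0.28, -0.07 and 0.50 in ob mice. The groups were apart by 1.19 ± 0.19 (adjusted p = 5.5e-06). Cdt1 rose by 0.98, its inhibitor Gmnn by 0.63 and Orc1 by 0.49. The loader and its inhibitor were thus both higher.

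Among the switch genes E2f1, a transcription factor that acts on many of the others, was at -0.88, -0.76, -0.75, -0.64 and -0.53 in lean B6 mice of 10 weeks and at 0.19, 0.37, 0.43, 0.46 and 0.54 in ob mice. No ob mouse was within the lean range, and the difference was 1.11 ± 0.08 (adjusted p = 5.7e-13). Cyclin E1 (Ccne1) rose by 0.38, and Ccne2, at 0.40, did not pass the test. All 3 chromatin genes rose, led by Uhrf1, which carries DNA methylation over to the new strand, from between -1.90 and -1.13 to between -0.67 and -0.01 (1.20 ± 0.21). The 2 subunits of chromatin assembly factor 1, Chaf1a and Chaf1b, rose by 0.42 and 0.53.

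The polymerase, clamp and lagging-strand genes had the smallest median of the roles in B6 islets at 10 weeks, 0.26. Of the 7, 3 rose at this age (Rfc3, Prim1 and Fen1), by 0.26 to 0.28. Rfc4 had a difference of 0.89 that did not pass the test. Pcna, the sliding clamp, differed by -0.07, Pola1 by 0.11 and Lig1 by 0.21, all short of the threshold. At 4 weeks Rfc3, a subunit of the clamp loader, rose by 0.89, Prim1 by 0.61, Lig1 by 0.45 and Fen1 by 0.39.

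**Figure D2:**
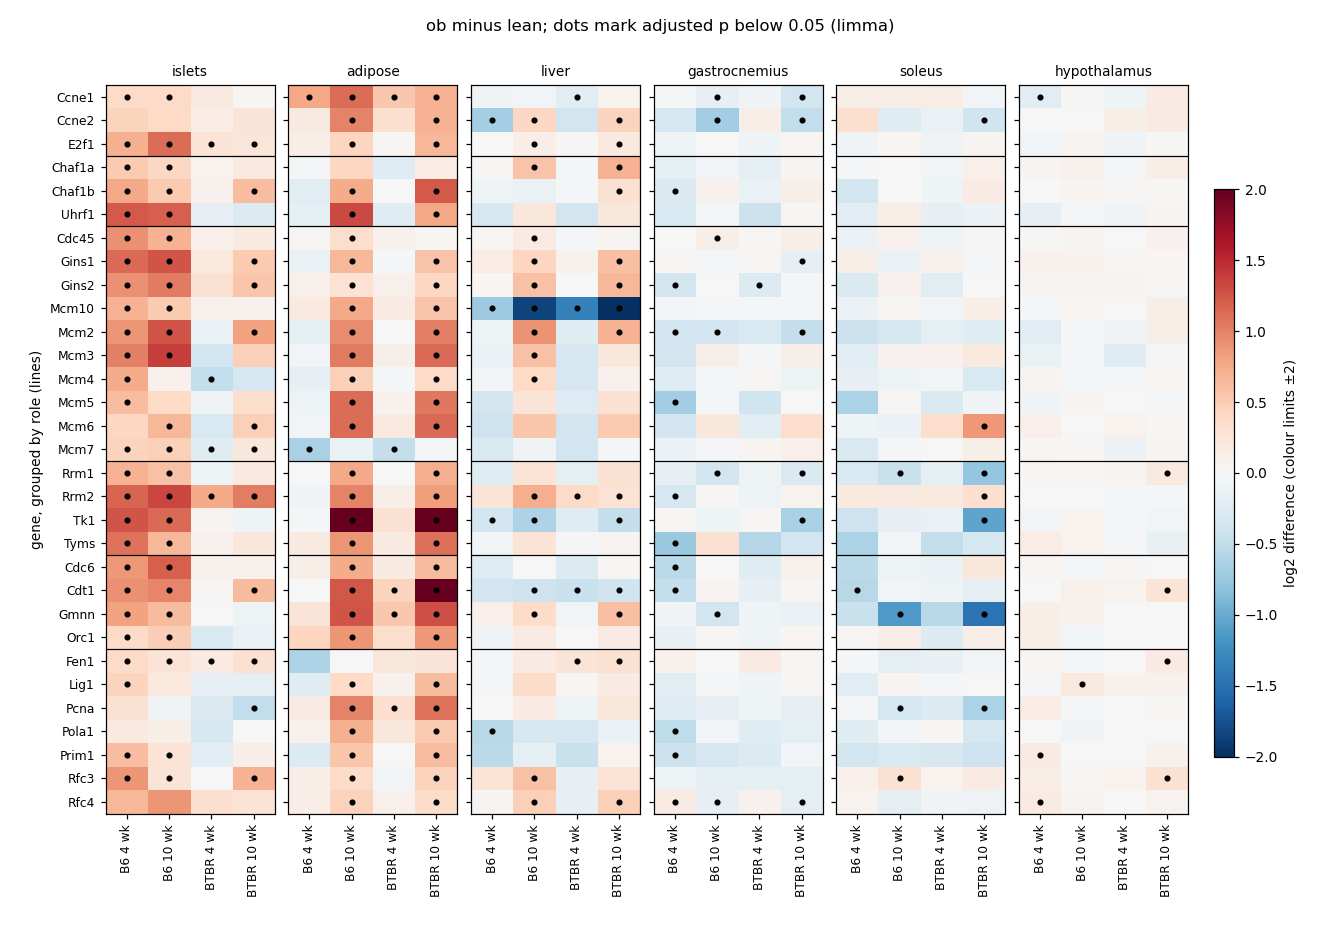
Log2 difference between ob and lean mice for each of the 31 genes (rows, ordered by role) in each tissue, strain and age (columns), on a colour scale centred on 0, with marked cells past an adjusted p of 0.05. In islets 24 of 31 genes rose in B6 at 10 weeks and 11 in BTBR, and in adipose at 10 weeks 28 and 27 rose.

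In BTBR islets the response at 10 weeks divided the program. Rrm2 was at -1.12, -0.91, -0.86, -0.83 and -0.68 in lean BTBR mice and at -0.39, 0.20, 0.25, 0.29 and 0.39 in ob mice, a difference of 1.03 ± 0.11 (adjusted p = 1.2e-09). Mcm2 went from between -0.92 and -0.65 to between -0.59 and 0.41 (0.81 ± 0.17), and Rfc3 from between -0.53 and -0.31 to between 0.01 and 0.37 (0.69 ± 0.09). In these 3 genes no ob mouse lay within the lean range. All 11 genes that rose in BTBR at 10 weeks were among the 24 that rose in B6, of which they made up 45.8%.

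Uhrf1 and Cdc6, given with values in every mouse, were among the genes that did not pass the test. Uhrf1 was at -1.46, -1.37, -1.21, -1.08 and -0.93 in lean BTBR mice of 10 weeks and at -2.26, -1.42, -1.37, -1.30 and -1.12 in ob mice, with a difference of -0.28 ± 0.21 (adjusted p = 0.27). Cdc6 was at -1.02, -0.95, -0.92, -0.87 and -0.75 in lean and at -1.01, -0.83, -0.79, -0.74 and -0.72 in ob mice, with a difference of 0.08 ± 0.19 (adjusted p = 0.75). Lean and ob mice overlapped in both genes, and in Uhrf1 1 ob mouse lay below the rest. Tk1 differed by -0.09 and Gmnn by -0.10, neither past the threshold. Pcna was the gene that fell, from -0.37, -0.08, 0.07, 0.08 and 0.17 in lean mice to -0.72, -0.61, -0.51, -0.45 and -0.34 in ob mice (-0.50 ± 0.15, adjusted p = 0.0047), with 1 lean mouse within the ob range.

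The strain difference was tested as the BTBR obesity effect minus that of B6. It was below 0 in 19 of 31 genes and above 0 in none at 4 weeks, against a background of 3.68% up and 6.09% down, and below 0 in 13 and above 0 in 1 at 10 weeks, against a background of 16.0% up and 17.5% down. At 10 weeks it was -1.48 ± 0.30 in Uhrf1, -1.23 in Tk1, -1.11 ± 0.27 in Cdc6 and -0.87 ± 0.12 in E2f1 (adjusted p = 3.4e-07). E2f1 rose in BTBR as well, by 0.24 ± 0.08, from between -0.36 and -0.09 to between -0.12 and 0.24. Rfc3 was the exception, with a larger increase in BTBR (0.42 ± 0.13, adjusted p = 0.01). At 4 weeks the largest differences were -1.40 in Mcm3, -1.37 in Uhrf1 and -1.22 in Mcm4, the last of which fell in obese BTBR mice (-0.49 ± 0.18, adjusted p = 0.029) from between 0.41 and 0.54 to between -0.29 and 0.41.

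Rrm2, E2f1 and Fen1, which trims the flaps of lagging-strand fragments, were the 3 genes that rose with obesity in islets in both strains at both ages. Rrm2 rose by 1.17 and 0.75 at 4 weeks, in B6 and BTBR, and E2f1 by 0.71 and 0.28. Of the 2 probes of Fen1, 1 gave 0.56 and the other 0.00 in B6 at 10 weeks, so its mean stands for neither. The obesity effect in BTBR, as a signed difference, was more positive at 10 than at 4 weeks in 7 genes and more negative in none, against a background of 11.8% up and 13.4% down. These were Mcm2 (0.94), Mcm3 (0.86), Mcm6 (0.77), Rfc3 (0.67), Chaf1b (0.52), Mcm7 (0.48) and Prim1 (0.34). The count of 7 was 2 with quantile normalization, 4 with only the groups compared and 4 with a score of acinar markers as a covariate. It was 3 or 4 without any 1 of 13 of the 20 BTBR mice, namely lean mice 36, 42 and 45 and ob mice 11, 12 and 16 of 4 weeks and lean mice 30, 32 and 33 and ob mice 4, 5, 9 and 10 of 10 weeks. Mcm2 and Rfc3 passed the test in all of these fits. In B6 1 gene had a larger effect at 10 weeks (E2f1, 0.40) and 1 a smaller one (Rfc3, -0.63), against a background of 3.68% up and 4.43% down.

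**Figure D3:**
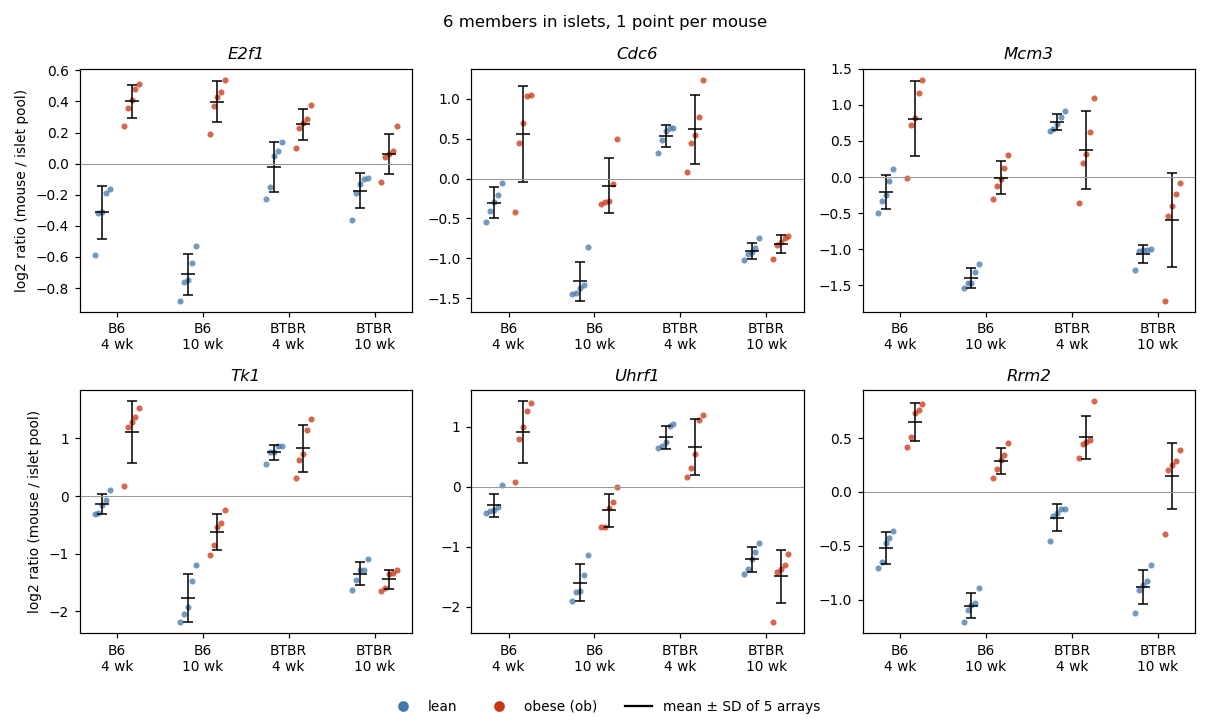
Log2 ratio to the pool of E2f1, Cdc6, Mcm3, Tk1, Uhrf1 and Rrm2 in islets, on the vertical axis, for every mouse (points) with group means (bars), by strain, age and genotype. Rrm2 was higher in ob mice of both strains at 10 weeks, whereas Uhrf1 and Cdc6 were higher in B6 ob mice and overlapped between lean and ob BTBR mice.

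The program was lower at 10 than at 4 weeks in the islets of every group. Between 4 and 10 weeks 20 genes fell and 1 rose in lean B6 mice (background 6.98% up and 7.98% down), 22 fell in ob B6 (background 8.49% up and 10.2% down), 27 fell in lean BTBR (background 8.44% up and 8.24% down) and 23 fell in ob BTBR mice (background 16.8% up and 17.0% down). Tk1 fell most, with differences of -1.62, -1.73, -2.11 and -2.27 in that order, each ± 0.20 (adjusted p = 5.6e-07, 1.2e-07, 2.9e-09 and 3e-11). In lean BTBR mice it was at 0.55, 0.76, 0.76, 0.87 and 0.87 at 4 weeks and at -1.63, -1.45, -1.29, -1.28 and -1.09 at 10 weeks, far outside the spread of either group. Uhrf1 followed, with falls of 1.29 to 2.16, each ± 0.21. The riser in lean B6 mice was Rfc3 (0.46). Ccne2, Cdc6, Cdt1, Tk1, Rrm2, Uhrf1, Orc1, Gmnn, Mcm3, Mcm7, Mcm10, Chaf1a, Cdc45, Gins2, Rrm1 and Pola1 fell in all 4 groups. The probes of Rrm2 differed here, at -0.9 and -0.16 in lean B6 and at -0.97 and -0.3 in lean BTBR mice. Of 11 stromal and matrix markers, 10 fell with age in lean mice of either strain. Their mean log2 ratio lay between 0.48 and 1.32 at 4 weeks and between -0.73 and 0.26 at 10 weeks in lean B6 mice, and between 0.24 and 0.79 and between -1.07 and -0.33 in lean BTBR mice. Their part in the fall with age was not tested.

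Other genes of the pathway were counted in islets in the same way. The background at 10 weeks was 24.3% up and 19.8% down in B6 and 25.9% up and 25.8% down in BTBR. Of 34 other replication genes, 19 rose and 4 fell in B6 at 10 weeks, led by the polymerase subunit Pole (1.60 ± 0.23) and the checkpoint adaptor Clspn (1.32 ± 0.22), and 13 rose and 5 fell in BTBR. Of 30 regulators of G1/S, 9 rose and 6 fell in B6, among them E2f2 (1.17 ± 0.08) and the cyclin Ccnd2 (-0.83 ± 0.18), and 11 rose and 10 fell in BTBR, where Ccnd2 fell by 1.67 ± 0.18. The shares of these regulators in B6 were near the background. Of 38 genes of mitosis and G2/M, 33 rose and none fell in B6, and 2 rose and 16 fell in BTBR. In obese BTBR islets Cenpf, a kinetochore protein, fell by 1.51 ± 0.33, while Racgap1, which acts in cytokinesis, rose by 1.95 ± 0.17. In obese BTBR islets at 10 weeks the 31 genes counted 11 up and 1 down, and the 38 mitotic genes 2 up and 16 down. The background was 25.9% up and 25.8% down, and the difference between the 2 sets was not tested.

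Islet preparations hold exocrine and stromal cells, and markers of both moved with the groups. Of 14 markers of acinar cells, which make digestive enzymes, 14 fell in obese B6 islets at 4 weeks and at 10 weeks (medians -2.07 and -2.45), and 7 and 11 fell in BTBR. Their score, the mean log2 ratio per mouse, lay between -0.46 and 1.69 in lean and between -2.08 and -1.28 in ob B6 mice of 10 weeks. In BTBR it lay between -0.02 and 1.24 and between -1.13 and -0.24. With this score as a covariate the called genes went from 26 to 15 in B6 at 4 weeks, from 24 to 8 in B6 at 10 weeks, and from 14 to 7 for the strain difference at 10 weeks. Over all genes the calls in these comparisons went from 8983 to 4422, from 8775 to 4007 and from 6657 to 5630. The score did not overlap between lean and ob mice of 10 weeks in either strain. Nor did it in B6 mice of 4 weeks, at -0.66 to 0.45 in lean and -2.57 to -1.95 in ob mice. In BTBR mice of 4 weeks it overlapped. Of 11 stromal and matrix markers, 11 fell at 4 weeks and 6 at 10 weeks in B6, 9 fell at 4 weeks in BTBR, and 9 rose at 10 weeks in BTBR. The part of these cells in the islet differences was not tested.

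**Figure D4:**
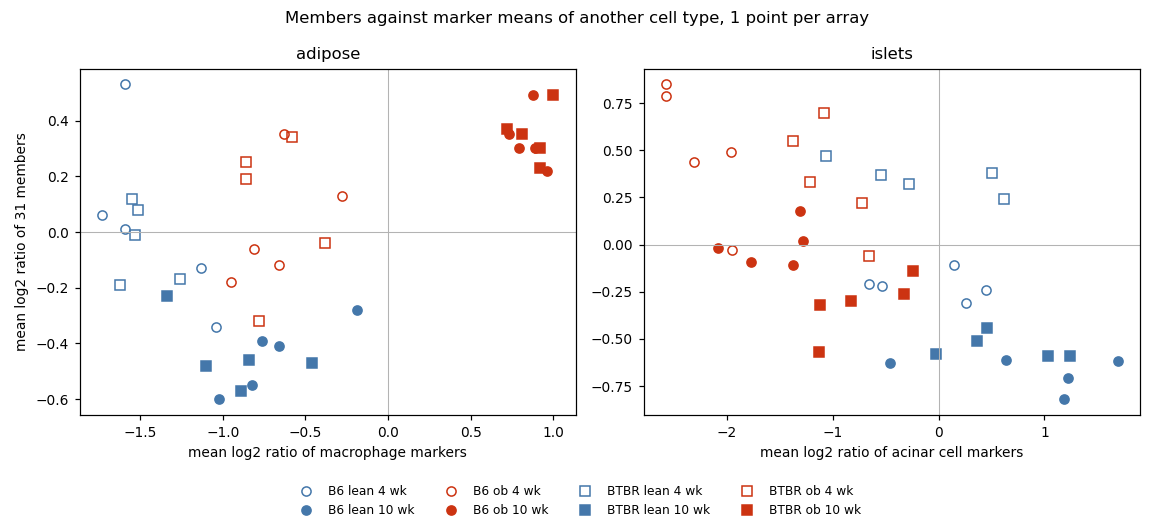
Mean log2 ratio of the 31 genes, on the vertical axis, against the mean log2 ratio of macrophage markers in adipose and of acinar markers in islets, on the horizontal axis, with 1 point per mouse, coloured by group. In adipose at 10 weeks ob mice lay at 0.72 or above on the macrophage axis and lean mice below 0, and in islets the ob B6 mice lay below the lean B6 mice on the acinar axis.

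The islet effect was set directly against the mean effect of the other 5 tissues in a fit over all 240 arrays. In B6 at 4 weeks 30 of 31 genes were more positive in islets and none less (background 18.3% up and 17.5% down, median 0.84), led by Uhrf1 (1.46 ± 0.24) and Tk1 (1.42 ± 0.20). In B6 at 10 weeks 17 were more positive and none less (background 19.8% up and 17.9% down, median 0.52), with Cdc6 at 1.07 ± 0.17 and Gins1 at 1.05 ± 0.11. The mean gave each of the 5 tissues the same weight and does not place islets above each of them. In adipose alone 28 genes rose in B6 at 10 weeks, against 24 in islets, and the median difference was larger in adipose. In BTBR 3 were more positive and 1 less at 4 weeks (background 16.2% up and 19.2% down), and 5 more positive and 4 less at 10 weeks (background 23.6% up and 24.3% down). Rrm2 was more positive in BTBR islets by 0.73 ± 0.12 and Pcna less by 0.61 ± 0.12 (difference -0.61). With the mouse as a replicate block the BTBR count at 10 weeks was 10.

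In E2F-controlled genes the factor binds near the start of transcription, and the words that fit its usual site were searched there. The words TTTCCCGC, TTTCGCGC, TTTGCCGC and TTTGGCGC were looked for on both strands in the 250 bases before each RefSeq start. They occurred in 8 of the 31 windows of the genes (25.8%), against 611 of 32851 windows of all starts (1.86%). The share was 24.2% of windows of the G1/S regulators, 13.2% of the other replication genes and 2.78% of the mitotic genes. The word CCAAT was in 58.1% of windows of the 31 genes, 77.8% of those of the mitotic genes and 33.8% of all. The words TTTGAA and TTCGAA, of the element that mitotic genes use, were in 16.1%, 36.1% and 17.1%. Ccne2, Mcm4, Gins1, Gins2 and Gmnn had no window in the table, and 26 genes had 1 or more.

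The 6 stretches below come from genes with such a word and the largest islet differences in B6 at 10 weeks. They are RefSeq sequence of build GRCm38.p6, each on the strand of its gene, with up to 30 bases on either side of the words, which are in capitals. In Mcm6 and Mcm5 a run of capitals joins 2 words that overlap on opposite strands. A match is a run of letters and does not show that a factor binds.
Uhrf1, chr17:56304098-56304165, + strand: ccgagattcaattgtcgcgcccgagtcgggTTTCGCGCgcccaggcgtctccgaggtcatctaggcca
Cdc6, chr11:98907983-98908050, + strand: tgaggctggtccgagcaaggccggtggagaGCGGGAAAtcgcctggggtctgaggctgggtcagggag
Mcm6, chr1:128359715-128359845, - strand: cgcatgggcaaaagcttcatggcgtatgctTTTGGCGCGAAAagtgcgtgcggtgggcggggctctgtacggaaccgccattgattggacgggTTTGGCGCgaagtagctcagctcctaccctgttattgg
Orc1, chr4:108579397-108579453, + strand: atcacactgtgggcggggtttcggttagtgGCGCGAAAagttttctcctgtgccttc
Mcm7, chr5:138172011-138172078, - strand: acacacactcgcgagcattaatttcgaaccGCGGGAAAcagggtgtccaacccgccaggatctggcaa
Mcm5, chr8:75109326-75109397, + strand: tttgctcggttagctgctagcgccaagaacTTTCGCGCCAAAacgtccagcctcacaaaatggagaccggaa
Uhrf1, Cdc6, Mcm6, Orc1 and Mcm7 rose in B6 islets at 10 weeks, by 1.20, 1.19, 0.67, 0.49 and 0.47, and Mcm5, at 0.40, did not pass the test. Of these 6 genes, Mcm6 and Mcm7 rose in BTBR islets at 10 weeks.

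Adipose showed its response at 10 weeks and in both strains. At 4 weeks 1 gene rose and 1 fell in obese B6 mice (background 18.0% up and 15.2% down) and 4 rose and 1 fell in BTBR (background 18.5% up and 13.4% down). Ccne1 rose in both, by 0.77 and 0.54, and Mcm7 fell in both (-0.65 and -0.48). At 10 weeks 28 rose and none fell in B6 (background 23.4% up and 18.3% down, median 0.76) and 27 rose and none fell in BTBR (background 22.7% up and 21.4% down, median 0.69). The 27 were all among the 28, and Cdc45, at 0.04 in BTBR, made the difference. Mcm7, Fen1 and Chaf1a passed the test in neither strain.

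Tk1 had the largest adipose difference. At 4 weeks lean B6 mice were at -0.90, -0.49, -0.11, 0.10 and 1.09 and ob mice at -0.66, -0.51, -0.20, 0.15 and 0.76, with full overlap. At 10 weeks lean B6 mice were at -1.92, -1.78, -1.69, -1.51 and -0.80 and ob mice at 0.52, 0.60, 0.69, 0.70 and 0.91. The lean mice had moved down and the groups were apart by 2.23 ± 0.30 (adjusted p = 2.1e-07). In BTBR the lean mice of 10 weeks lay between -2.23 and -1.44 and the ob mice between 0.46 and 0.93 (2.52 ± 0.30, adjusted p = 1.9e-08).

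Licensing genes followed in adipose, with 4 of 4 up in both strains at 10 weeks. Cdt1 was at -1.39, -1.25, -1.13, -0.77 and -0.74 in lean BTBR mice and at 0.88, 0.89, 0.94, 0.95 and 1.16 in ob mice, a difference of 2.02 ± 0.15 (adjusted p = 1.1e-12). In B6 Cdt1 went from between -0.94 and -0.16 to between 0.51 and 0.86 (1.24 ± 0.15). It was the 1 gene with a larger effect in BTBR (0.78 ± 0.22), and Ccne1 the 1 with a smaller effect (-0.42), against a background of 6.91% up and 6.01% down for that difference. At 4 weeks no gene was called for it, against a background of 0.472% up and 0.774% down. Gmnn rose by 1.25 ± 0.14 in B6 and 1.29 ± 0.14 in BTBR, from between -0.70 and -0.54 to between 0.57 and 0.88 in the former.

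Among the helicase genes Mcm5 rose by 1.12 ± 0.16 in B6 and 1.05 ± 0.16 in BTBR, Mcm6 by 1.11 and 1.13 and Mcm3 by 1.04 and 1.14. Pcna, which fell in obese BTBR islets, rose in adipose by 0.99 and 1.09. Uhrf1 rose by 1.32 ± 0.28 in B6, with lean mice between -1.30 and -0.44 and ob mice between 0.18 and 0.65, and by 0.77 ± 0.28 in BTBR (adjusted p = 0.023), where the groups overlapped. The probes of Rrm2 disagreed in adipose, at 1.78 and 0.19 in B6 and at 1.95 and -0.26 in BTBR, so its mean of 0.99 and 0.84 stands for neither.

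The signed obesity effect was more positive at 10 than at 4 weeks in 21 genes in B6 (background 6.49% up and 4.65% down) and in 17 in BTBR (background 11.4% up and 9.32% down), and more negative in none. Lean and ob mice moved in opposite directions over this time. In lean mice 19 genes fell in B6 (background 8.61% up and 9.5% down) and 13 in BTBR (background 7.53% up and 9.86% down) and none rose. In ob mice 10 rose and 1 fell in B6 (background 16.0% up and 15.5% down) and 11 rose and 2 fell in BTBR (background 20.1% up and 20.4% down). Cdt1, Gmnn, Mcm3, Mcm4, Mcm5, Mcm6 and Pcna rose in both strains of ob mice, and Ccne1 fell in both. Leaving out mouse 35 of the lean B6 mice of 4 weeks took the 19 to 11, and leaving out mouse 11 of the ob B6 mice of 4 weeks took the 11 genes called in ob B6 mice to 7.

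Other cell types moved along in adipose. Of 14 macrophage markers, 12 rose in B6 and 13 in BTBR at 10 weeks (medians 1.19 and 1.66), and 10 and 9 rose at 4 weeks. The score of these markers lay between -1.02 and -0.19 in lean and 0.73 and 0.96 in ob B6 mice of 10 weeks, and between -1.34 and -0.46 and between 0.72 and 1.0 in BTBR. With this score as a covariate 17 genes were called in B6 and 12 in BTBR at 10 weeks. In lean mice 5 in place of 19 (B6) and 7 in place of 13 (BTBR) were called for age, and in ob mice 1 in place of 11 and 4 in place of 13. Over all genes 4301 in place of 8298 (B6) and 2328 in place of 8760 (BTBR) were called for obesity at 10 weeks. For age the calls over all genes were 1363 in place of 3604 and 4040 in place of 3461 in lean mice. In ob mice they were 447 in place of 6252 and 2442 in place of 8058. Mcm4 changed sign in BTBR, to -0.11 for obesity at 10 weeks (adjusted p = 0.87) and to -0.07 for age in ob mice (adjusted p = 0.88). Of 7 testis markers, 5 fell in B6 and 4 in BTBR at 10 weeks, with scores between -4.79 and 3.08 in lean mice of 10 weeks and between -4.64 and -1.53 in ob mice. With the testis score as a covariate the counts at 10 weeks were 29 and 27. The part of macrophages in the adipose differences was not tested.

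Mitotic genes were higher in obese adipose of both strains. The background at 10 weeks was 23.4% up and 18.3% down in B6 and 22.7% up and 21.4% down in BTBR. Of 38 genes of mitosis and G2/M, 35 rose at 10 weeks in B6, 24 rose in BTBR and none fell, with Mki67, a marker of cycling cells, up by 1.95 ± 0.35 and 2.33 ± 0.35. Of the 34 other replication genes, 20 rose and none fell in B6 and 18 rose and 4 fell in BTBR. Clspn rose by 1.64 ± 0.27 and 1.67 ± 0.27.

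In liver a smaller increase at 10 weeks stood beside 3 genes that fell. At 4 weeks 4 genes fell and none rose in obese B6 mice (background 17.1% up and 11.8% down), and 2 rose and 3 fell in BTBR (background 13.0% up and 10.4% down). At 10 weeks 13 rose and 3 fell in B6 (background 22.6% up and 18.8% down, median 0.26) and 11 rose and 3 fell in BTBR (background 28.0% up and 21.7% down, median 0.22). The share that rose in BTBR was not far from the background. The share that fell was near the background at 4 weeks and below it at 10 weeks in both strains. In both strains Ccne2, Chaf1a, E2f1, Gins1, Gins2, Gmnn, Mcm2, Rfc4 and Rrm2 rose, and Cdt1, Mcm10 and Tk1 fell. The genes that rose in both were 69.2% of the B6 set and 81.8% of the BTBR set.

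Mcm10, which links the MCM helicase to the polymerase, had the largest obesity difference of all 31 genes in liver. Lean B6 mice of 10 weeks were at 0.69, 0.76, 1.09, 1.28 and 1.34 and ob mice at -1.16, -1.16, -0.78, -0.52 and -0.49, a fall with obesity (-1.85 ± 0.24, adjusted p = 1.6e-07). Lean BTBR mice were at 0.78, 0.84, 1.09, 1.12 and 1.20 and ob mice at -1.88, -1.80, -1.35, -1.28 and -1.24 (-2.52 ± 0.24, adjusted p = 2.7e-10). In both strains the groups were far apart. At 4 weeks Mcm10 already fell in obese mice, by 0.73 ± 0.24 in B6 and by 1.35 ± 0.24 in BTBR. It was also the 1 gene that rose with age in lean liver, by 1.40 ± 0.24 and 0.98 ± 0.24. This gene had 1 probe on the array.

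Mcm2, by contrast, was at -0.87, -0.87, -0.76, -0.71 and -0.61 in lean B6 liver at 10 weeks and at -0.02, 0.10, 0.18, 0.22 and 0.23 in ob mice (0.90 ± 0.19, adjusted p = 0.00026). In BTBR it rose by 0.70 ± 0.19, with lean mice between -0.76 and -0.16 and ob mice between -0.33 and 0.88. Rrm2 rose by 0.72 ± 0.12 in B6, from between -0.88 and -0.34 to between -0.05 and 0.16. Mcm10 and Mcm2 thus moved in opposite directions in the same livers. The strain difference was called in no gene at 4 weeks (background 0.447% up and 0.94% down) and in Chaf1b at 10 weeks (0.44, background 12.8% up and 12.8% down).

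The program was lower at 10 than at 4 weeks in lean liver, with 27 genes down in B6 (background 10.4% up and 11.3% down, median -0.57) and 19 in BTBR (background 11.1% up and 11.0% down, median -0.47), and Mcm10 up in both. All 19 were among the 27. Mcm6 fell most, from -0.04, 0.02, 0.85, 1.06 and 1.29 at 4 weeks to -1.29, -1.28, -1.24, -1.20 and -1.0 at 10 weeks in lean B6 mice (-1.84 ± 0.30, adjusted p = 2.9e-05). In lean BTBR mice it went from between 0.12 and 0.81 to between -1.25 and -0.46 (-1.49 ± 0.30). The lean groups of 4 and 10 weeks did not overlap in either strain. In ob mice 4 genes fell in B6 (background 9.86% up and 8.81% down) and 3 in BTBR (background 12.7% up and 10.4% down) and none rose. The signed obesity effect was more positive at 10 than at 4 weeks in 4 genes and more negative in 1 in B6 (background 3.5% up and 3.32% down), and in 8 and 1 in BTBR (background 7.36% up and 6.7% down). Mcm10 was the gene with the more negative value in both, its fall with obesity being deeper at 10 weeks, and Ccne2 (1.10 and 0.82) and Mcm2 (0.99 and 0.94) had the largest increases. The 5 calls in B6 went as low as 1, without lean mouse 35 of 4 weeks. Of 11 stromal and matrix markers, 7 fell with age in lean B6 and 8 in lean BTBR liver (medians -0.58 and -0.71). Their mean log2 ratio lay between 0.07 and 0.71 at 4 weeks and between -0.62 and -0.17 at 10 weeks in lean B6 mice, and between 0.25 and 0.60 and between -0.60 and -0.37 in lean BTBR mice. Their part in the fall with age was not tested. Of the 38 mitotic genes 37 fell with age in lean B6 and 36 in lean BTBR liver, whereas with obesity at 10 weeks 1 rose in B6 and 2 rose and 1 fell in BTBR.

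**Figure D5:**
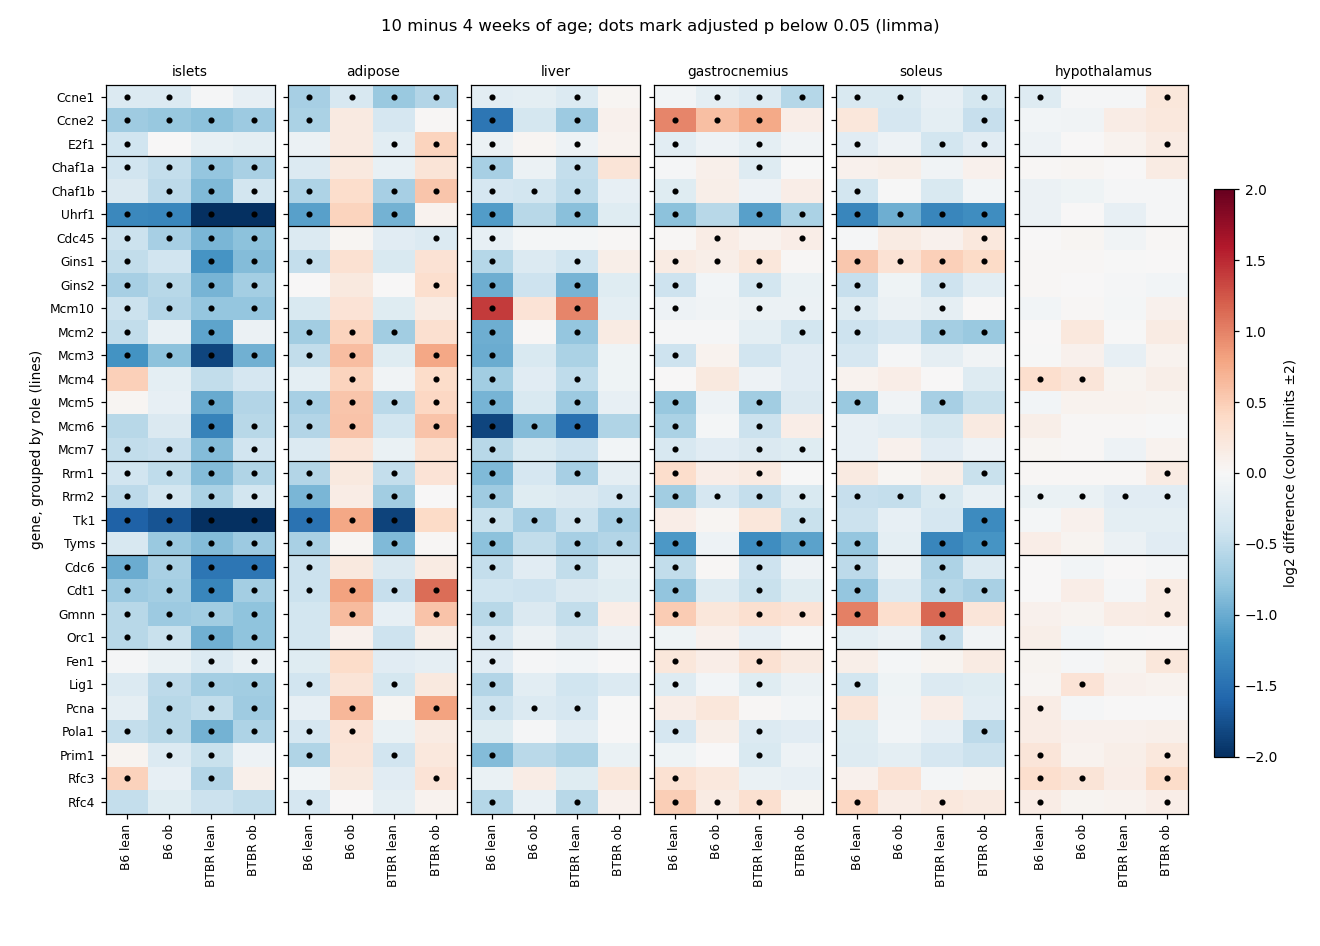
Log2 difference between 10 and 4 weeks for each of the 31 genes (rows, ordered by role) in each tissue and in lean and ob mice of both strains (columns), on a colour scale centred on 0, with marked cells past an adjusted p of 0.05. Islets fell in all 4 groups, lean liver fell except for Mcm10, and adipose fell in lean and rose in ob mice.

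In gastrocnemius, a leg muscle of mostly fast fibres, most of the genes called for obesity were lower in obese mice. The program as a whole moved little at 10 weeks. The medians of the roles lay between -0.16 and 0.01 in B6 and between -0.36 and 0.06 in BTBR. In B6 1 gene rose and 10 fell at 4 weeks (background 6.84% up and 7.55% down) and 1 rose and 6 fell at 10 weeks (background 8.18% up and 8.06% down). In BTBR 1 fell at 4 weeks (background 2.85% up and 3.02% down) and 7 fell at 10 weeks (background 11.9% up and 13.3% down). The share that fell in BTBR at 4 weeks was near the background. Tyms was at -0.37, -0.16, 0.94, 1.02 and 1.31 in lean B6 mice of 4 weeks and at -0.37, -0.34, -0.27, -0.23 and 0.19 in ob mice (-0.75 ± 0.26, adjusted p = 0.045). Of the lean mice, 3 lay above every ob mouse and 2 lay within the ob range. The 11 calls in B6 at 4 weeks moved with single mice. They were 17 without lean mouse 34, 5 without lean mouse 35, 6 without lean mouse 45, 7 without lean mouse 47 and 7 without ob mouse 10. With only the groups compared in the fit 1 was called, and calls over all genes went from 2863 to 1242.

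At 10 weeks cyclin E2 (Ccne2) was at 0.47, 0.49, 0.51, 0.73 and 0.90 in lean B6 gastrocnemius and at -0.17, -0.14, -0.13, -0.12 and 0.15 in ob mice, with no overlap (-0.70 ± 0.14, adjusted p = 0.00031). In BTBR it fell by 0.49 ± 0.14. Tk1 fell in BTBR from 0.13, 0.20, 0.23, 0.32 and 0.34 to -0.60, -0.44, -0.43, -0.36 and -0.18 (-0.65 ± 0.12, adjusted p = 0.00011). The strain difference was called for Tk1 (-0.56) and Ccne1 (-0.19) at 10 weeks, against a background of 2.73% up and 3.88% down, and for none at 4 weeks, against a background of 0.0452% up and 0.116% down. The signed obesity effect was more positive at 10 than at 4 weeks in Gins2 (0.37) and more negative in Rfc4 (-0.33) in B6 (background 4.69% up and 2.88% down), and more negative in Tk1, Ccne1 and Rfc4 in BTBR (-0.66, -0.28 and -0.28, background 2.48% up and 3.34% down). Leaving out mouse 20 took the 7 calls in B6 at 10 weeks to 4.

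In lean B6 gastrocnemius 7 genes rose and 15 fell with age (background 24.6% up and 17.9% down), and in BTBR 6 rose and 16 fell (background 19.1% up and 17.4% down). The share that rose was near the background in both strains. The 6 genes that rose in both were Ccne2 (0.97 ± 0.14 and 0.76 ± 0.14), Fen1, Gins1, Gmnn, Rfc4 and Rrm1. The 13 that fell in both were led by Tyms (-1.15 ± 0.26 and -1.25 ± 0.26), Uhrf1 (-0.82 and -1.09) and Mcm5 (-0.76 and -0.70). In ob mice 4 rose and 2 fell in B6 (background 11.9% up and 9.45% down) and 2 rose and 8 fell in BTBR (background 15.3% up and 17.4% down). Of the 38 mitotic genes 33 and 34 fell with age in lean mice, and 34 fell with obesity in B6 at 4 weeks. Of 11 stromal and matrix markers 10 fell with age in lean mice of either strain, with mean log2 ratios between 0.10 and 0.54 at 4 weeks and between -1.30 and -0.76 at 10 weeks in B6, and between 0.45 and 0.68 and between -0.90 and -0.71 in BTBR. Of 6 markers of satellite cells, the stem cells of muscle, and myoblasts, 4 fell in B6 and 5 in BTBR (medians -0.70 and -0.72), with means between -0.07 and 0.59 at 4 weeks and between -0.89 and -0.63 at 10 weeks in B6, and between 0.14 and 0.39 and between -0.73 and -0.49 in BTBR. The part of these cells in the age differences was not tested.

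In soleus, a muscle rich in slow fibres, Gmnn had the largest obesity differences. With obesity 1 gene fell in B6 at 4 weeks (background 2.84% up and 2.58% down), 1 rose and 3 fell in B6 at 10 weeks (background 8.26% up and 7.07% down), none was called in BTBR at 4 weeks (background 4.49% up and 2.93% down), and 2 rose and 5 fell in BTBR at 10 weeks (background 13.5% up and 14.7% down). The share that fell in BTBR at 10 weeks was near the background. Gmnn was at 0.56, 0.66, 0.75, 0.87 and 1.23 in lean B6 mice of 10 weeks and at -0.62, -0.47, -0.34, -0.34 and 0.19 in ob mice (-1.13 ± 0.18, adjusted p = 6.4e-05). In BTBR it was at 0.59, 0.86, 1.07, 1.15 and 1.20 in lean and at -1.24, -0.53, -0.34, -0.30 and -0.06 in ob mice (-1.47 ± 0.18, adjusted p = 1e-07). Lean and ob soleus did not overlap in either strain, and the direction was opposite to that in adipose and B6 islets. In lean mice Gmnn rose with age by 1.0 and 1.15, as did Gins1 and Rfc4.

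In BTBR soleus at 10 weeks Tk1 fell from -0.07, -0.06, 0.00, 0.09 and 0.21 in lean to -1.73, -1.16, -1.12, -0.65 and -0.46 in ob mice (-1.06 ± 0.18, adjusted p = 3e-05). Mcm6 rose from -1.02, -0.83, -0.68, -0.30 and -0.16 to -0.05, 0.13, 0.22, 0.42 and 0.67 (0.87 ± 0.17, adjusted p = 0.00011). These were also the genes with a strain difference at 10 weeks, at -0.90 ± 0.26 and 1.0 ± 0.24, against a background of 3.35% up and 3.91% down. With age 3 rose and 13 fell in lean B6 (background 13.2% up and 11.5% down), 3 rose and 11 fell in lean BTBR (background 15.7% up and 14.0% down), 1 rose and 3 fell in ob B6 (background 3.98% up and 3.04% down) and 2 rose and 10 fell in ob BTBR mice (background 16.0% up and 16.6% down). Uhrf1 fell in all 4, by 0.98 to 1.31. The strain difference at 4 weeks was called in no gene (background 0.0402% up and 0.0955% down). The obesity effect was more negative at 10 than at 4 weeks in Tk1, Gmnn and Rrm1 in BTBR (-0.93, -0.91 and -0.57, background 2.01% up and 2.8% down), and no gene was called in B6 (background 0.96% up and 0.744% down). Of the 38 mitotic genes 32 and 35 fell with age in lean mice and none was called for obesity. Of the 6 satellite cell and myoblast markers, 6 fell with age in lean B6 and 5 in lean BTBR soleus (medians -1.28 and -1.07), with means between -0.23 and 0.74 at 4 weeks and between -1.42 and -1.28 at 10 weeks in B6, and between 0.18 and 0.56 and between -1.05 and -0.84 in BTBR. Of the 11 stromal and matrix markers 9 and 10 fell (medians -0.74 and -1.27), with means between 0.12 and 0.65 and between -0.79 and -0.24 in B6, and between -0.04 and 0.74 and between -0.97 and -0.67 in BTBR. The part of these cells in the soleus age differences was not tested.

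Hypothalamus changed least. With obesity 2 genes rose and 1 fell in B6 at 4 weeks (background 1.96% up and 2.43% down), 1 rose in B6 at 10 weeks (background 0.302% up and 0.457% down), none was called in BTBR at 4 weeks (background 0.106% up and 0.246% down), and 4 rose in BTBR at 10 weeks (background 6.35% up and 6.24% down). The largest of these was Rfc3, at -0.12, -0.05, -0.02, 0.00 and 0.12 in lean and at 0.19, 0.20, 0.32, 0.37 and 0.39 in ob BTBR mice (0.31 ± 0.07, adjusted p = 0.0018). The groups were apart by a small step. With age 5 rose and 2 fell in lean B6 (background 4.19% up and 6.07% down), 3 rose and 1 fell in ob B6 (background 2.78% up and 3.47% down), 1 fell in lean BTBR (background 1.41% up and 3.6% down) and 9 rose and 1 fell in ob BTBR mice (background 6.34% up and 6.91% down). Rrm2 fell in all 4, by 0.14 to 0.23. No gene was called for the strain difference, at 4 weeks (background 0.0% up and 0.0% down) or at 10 weeks (0.307% up and 0.246% down), or for a change of the obesity effect between the ages in B6 (0.266% up and 0.352% down) or BTBR (1.11% up and 1.1% down).

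After group means were removed, pairs of the 31 genes varied together from mouse to mouse. The median correlation over the 465 pairs was 0.57 in islets, 0.609 in adipose, 0.613 in liver, 0.40 in gastrocnemius, 0.418 in soleus and 0.06 in hypothalamus, each over 40 arrays, which share tissue dissection and hybridisation. With the other genes on the array their median correlation lay between -0.034 and 0.007.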

How the data were processed

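RNA of 6 tissues of B6 and BTBR mice was extracted with Trizol and a column, made into cRNA in 1 round of amplification and labelled with Cy3 or Cy5, per the labels' protocols. The deposited values are log10 ratios of a mouse to a pool of its strain and tissue as the authors processed them, limited to between -2 and 2. The array scanner, any correction for background and the method of normalization were not given in the sources used here. A pool held 20 mice, or 19 for BTBR liver. The labels call the BTBR adipose pool a control pool of ob mice; any pool cancels within a strain and tissue. No label gives a batch.

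Of 39556 probes, 23283 (58.9%) had a gene name in the platform annotation (16574 as a current symbol, 6594 as a synonym and 115 as given), and 16273 were not analysed. No value was missing, 757 (0.00797%) were at the limit, and 1 of these was of a Fen1 probe. Ratios carry no signal over background, so no filter on dim probes was possible, and the number of arrays limits the precision. Values were rescaled to log2, probes averaged per gene, and each tissue fitted with 8 group means over 40 arrays in limma 3.58.1 (R 4.3.3), 2-sided, with Benjamini-Hochberg adjustment over 19896 genes and a threshold of 0.05. The islet effect was set against that of the other tissues in 1 fit of 240 arrays with array weights per tissue. Mouse numbers mark the animal, so they pair tissues but not the groups of a tissue. Residuals of tissues of the same mouse had median correlations of 0.006 to 0.284 over the tissue pairs. These were above those of different mice of a group in 15 of 15 pairs. That contrast is not independent, because the residuals of a group sum to 0.

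The members, lists and tests were chosen with earlier results of these data known. The difference between the 10-week and the 4-week obesity effect and the testis covariate were added after seeing the data. Per comparison the called members with the largest change are given with values in each mouse, with up to 4 called genes from each other list. A covariate score is the mean of a marker list per array. On simulated data with 200 of 19896 genes changed in the B6 comparison at 10 weeks, 94% of 2-fold and 91% of 1.5-fold changes were found, with 4.15% false calls. The simulated noise had the spread of the islet arrays and was independent between genes. In the data the members varied together and far more genes were called, so these rates need not hold there. Whether litter or cage was shared is not stated, and p-values measure the spread between these mice. Alternatives tried were quantile normalization, centring, the most variable probe, robust fitting, only the groups compared, marker covariates, the limits, and leaving out each mouse. Python 3.11.15, pandas 2.3.3, numpy 2.4.6 and matplotlib 3.10.9 were used.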

Additional observations from a re-analysis of the deposited data

Results flagged for a closer look

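Within groups of 5 mice, the gap between the extreme mouse and the next one was larger than Dixon's limit (0.71 of the group's range) in 1 of 48 groups for the mean of the 31 genes and in 11 of 114 groups for the genes whose values are given; chance gives about 1 in 20. The group mean was that of obese BTBR gastrocnemius at 4 weeks, where 1 mouse was at 0.23. In islets these mice were at -0.39 for Rrm2 and -2.26 for Uhrf1 (obese BTBR, 10 weeks), -0.86 for Cdc6 (lean B6, 10 weeks) and 0.17 for Tk1 (obese B6, 4 weeks). In adipose they were at 1.16 for Cdt1 (obese BTBR), 0.88 for Gmnn (obese B6) and 0.01 for Gmnn (lean BTBR), all at 10 weeks. In liver they were at -0.82 for Mcm10 (lean BTBR, 4 weeks) and -0.46 for Mcm6 (lean BTBR, 10 weeks). In gastrocnemius they were at 0.19 for Tyms (obese B6, 4 weeks) and 0.15 for Ccne2 (obese B6, 10 weeks).

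Tests of a difference between effects called members as follows. The strain difference in the obesity effect was called in 19 genes at 4 weeks and 14 at 10 weeks in islets, and at 10 weeks in 2 in adipose, 1 in liver, 2 in gastrocnemius and 2 in soleus. The difference between the 10-week and the 4-week effect was called, in B6 and BTBR, in 2 and 7 genes in islets, 21 and 17 in adipose, 5 and 9 in liver and 2 and 3 in gastrocnemius, and in 3 in BTBR soleus. The islet effect against that of the other 5 tissues was called in 30 and 17 genes in B6 at 4 and 10 weeks and in 4 and 9 in BTBR.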

How the results depend on the processing

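Counts of called members moved by more than 1.5 times under these settings. With the acinar score as a covariate, islet counts went from 26 to 15 (obesity, B6, 4 weeks), 24 to 8 (B6, 10 weeks), 14 to 7 (strain difference, 10 weeks), 7 to 4 (change of the effect with age, BTBR) and 21 to 13 (age, lean B6). With the macrophage score, adipose counts went from 28 to 17 (B6, 10 weeks), 27 to 12 (BTBR, 10 weeks), 2 to 4 (B6, 4 weeks), 2 to 1 (strain difference, 10 weeks), 17 to 9 (change of the effect, BTBR) and, for age, 19 to 5, 11 to 1, 13 to 7 and 13 to 4; Mcm4 reversed in BTBR, to -0.11 and -0.07. With arrays centred, gastrocnemius in BTBR at 4 weeks had 0, the liver strain difference at 10 weeks 2, and soleus at 4 weeks 3 (B6) and 1 (BTBR). With the most variable probe, BTBR at 4 weeks had 2 in gastrocnemius and 3 in liver. Calls over all genes moved under the scores as well. For obesity at 10 weeks they went from 8775 to 4007 in B6 islets with the acinar score. With the macrophage score they went from 8298 to 4301 in B6 and from 8760 to 2328 in BTBR adipose. For age in lean BTBR adipose they went from 3461 up to 4040. The cause of these moves was not tested.

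With only the groups compared in a fit, which leaves fewer samples, age counts were 5 and 8 in lean B6 and BTBR adipose, 17 in lean and 12 in ob B6 liver, 9 in lean B6 soleus and 4, 1 and 5 in hypothalamus (lean B6, ob B6, ob BTBR). Obesity counts were 1 (B6) and 0 (BTBR) in gastrocnemius, 0 in B6 soleus and 3 in BTBR islets and 2 in BTBR liver at 4 weeks, and in hypothalamus 0 in B6 at both ages and 2 in BTBR at 10 weeks; change of the effect with age had 1 and 4 in islets and 2 in B6 liver, and the liver strain difference at 10 weeks had 3. With quantile normalization, strain differences at 10 weeks were 0 in adipose and gastrocnemius and 1 in soleus, obesity counts at 4 weeks 0 in BTBR gastrocnemius and B6 hypothalamus, 3 in BTBR islets, 4 in B6 and 1 in BTBR soleus, change of the effect 2 in BTBR islets and 1 in B6 liver, and age 10, 9 and 7 in ob B6 gastrocnemius, liver and soleus and 2 in lean BTBR hypothalamus. Calls over all genes moved too. With only the groups compared, age calls went from 3604 to 1008 in lean B6 adipose. In ob B6 liver they went from 3714 up to 5304. Obesity calls at 4 weeks went from 1168 to 85 in BTBR gastrocnemius and from 873 to 7 in B6 hypothalamus. With quantile normalization the last was 444, and age calls in ob B6 soleus went from 1397 up to 2530. The cause of these moves was not tested. No count of members moved by more than 1.5 times with robust fitting, with values at the limits left out, or with the testis score.

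Leaving out 1 mouse gave these ranges. In adipose they were 11 to 21, 7 to 14 and 7 to 16 for age in lean B6, ob B6 and lean BTBR, 1 to 2 for the strain difference at 10 weeks and 2 to 5 for B6 at 4 weeks. In gastrocnemius they were 6 to 10 for age in ob BTBR, 0 to 2 for the strain difference, 4 to 7 and 5 to 17 for B6 at 10 and 4 weeks and 0 to 5 for BTBR at 4 weeks. In hypothalamus they were 4 to 7, 1 to 5, 1 to 2 and 6 to 9 for age, 0 to 1 for the strain difference and for B6 at 10 weeks and 0 to 5 for B6 at 4 weeks. In islets they were 1 to 3 (B6) and 3 to 9 (BTBR) for change of the effect and 3 to 9 for BTBR at 4 weeks, with 3 without ob mouse 11 and 9 without ob mouse 13. In liver they were 2 to 8 and 1 to 4 for age in ob B6 and ob BTBR, 1 to 6 for change of the effect in B6, 1 to 2 for the strain difference, 2 to 5 for B6 and 2 to 7 for BTBR at 4 weeks. In soleus they were 1 to 2 for the strain difference, 2 to 4 and 0 to 7 for B6 at 10 and 4 weeks and 0 to 2 for BTBR at 4 weeks. Of the single calls of members refitted without 1 mouse, 927 lost the threshold and 0 reversed.

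With the mouse as a replicate block (consensus correlation 0.055), the islet effect against the other tissues was called in 31, 17, 5 and 10 genes, and without array weights in 30, 17, 5 and 10. Within a tissue no paired analysis was possible because each mouse is in 1 group.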
